A study of Rattus norvegicus with 9 samples.

Results

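The 100 most abundant NONCODE long non-coding RNA (lncRNA) transcripts were followed in endothelial cells grown from the rat renal artery, where they form the inner lining of the vessel. NONCODE is a public catalogue of non-coding RNAs, and its rat transcripts carry numbers that begin with NONRATT. Of the 16814 rows of the lncRNA count table, 14394 carry such a number. Each library's counts were divided by its total over all rows and multiplied by 1e6 (counts per 1e6 lncRNA counts, CPM), the 9 libraries were averaged, and the 100 NONRATT rows with the highest average were kept. The members were thus chosen by their mean CPM over all libraries, without regard to group, and the levels themselves are given as a description.

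Total RNA was made into strand-specific libraries, 3 in each of 3 groups. The Normal group carries no further label. The Model group is tied by the series title to angiotensin II, a peptide hormone that constricts arteries. The Treated group received Calycosin and Tanshinone IIA, plant compounds known from astragalus and danshen root. The title places them on angiotensin II-induced dysfunction, while the sample labels name only the compounds. All groups came from serially passaged cells kept in the same serum-containing medium with antibiotics, and the labels give neither dose nor time. The cells are labelled as 1 cell line, and nothing says that the 3 libraries of a group were separate cultures, so every p-value gauges only how these libraries scatter, which may be technical. The identifiers of both deposited tables were not matched to symbols, so endothelial marker genes were not analysed here.

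Long non-coding RNAs are transcripts with no known protein product. Some stay in the nucleus and scaffold chromatin regulators or splicing bodies, some act on the transcription of neighbouring genes, and others bind proteins or small RNAs in the cytoplasm. In endothelial cells, lncRNAs are known to take part in growth, migration and the response to low oxygen and to vasoactive peptides. Catalogue transcripts often overlap one another and protein-coding genes, so that reads can be shared among several entries. The function of the single NONRATT entries named here is not given in the files and none is assigned.

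The lncRNA table held 710678 to 1583737 counts per library, and Treated 2 and Treated 3 were the smallest libraries. At these totals 3 counts equal 1.89 to 4.22 CPM, far below the members' usual level: the median member had 969 counts in the smallest library and 2147 in the library with most. Of the 900 values (100 members in 9 libraries), 5 were under 10 counts. All 100 members passed the low-count filter of the test.

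The members held 19.1% to 21.9% of a library's lncRNA counts, and the first 10 of them 5.87% to 8.82%. NONRATT entries made up 83 of the 100 most abundant rows of any kind, and the other 17 were Ensembl transcripts (ENSRNOT) or assembled transcripts (MSTRG). Just inside the rule lay NONRATT028302.2 at 944 and NONRATT024449.2 at 935 CPM. Just outside it lay NONRATT015643.2 at 929 and NONRATT005821.2 at 917 CPM, so the limit of the list falls in a gradual slope.

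Transcript length, recovered from the ratio of deposited counts to deposited FPKM (fragments per kilobase per 1e6 fragments), had a median of 2537 bases among the members and ran from 242 bases in NONRATT003467.2 to 7706 bases in NONRATT034050.1. The other 6907 NONRATT rows that passed the filter had a median of 771 bases. A length under 1000 bases was found in 14 of the 100 members and in 66.8% of those other rows. A rule based on counts favours long transcripts, and length was not part of the rule. Ranked instead by mean FPKM, which is per length, 52 of the 100 would also have been chosen.

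Per length, the members were led by short transcripts. NONRATT003466.2 (885 bases), first on both scales, stood at 1846 FPKM on average (1103 to 2498 over the 9 libraries). NONRATT010821.2, of only 257 bases, followed at 1562 FPKM on average (1187 to 2059 over the 9 libraries). The next were NONRATT003470.2 (354 bases) at 883 FPKM on average (739 to 1329 over the 9 libraries) and NONRATT007863.2 (718 bases) at 847 FPKM on average (719.8 to 1028 over the 9 libraries). NONRATT031966.1 (1872 bases), second by counts, reached 554 FPKM on average (373 to 1040.1 over the 9 libraries). Their ranges overlapped from one to the next. Library by library, NONRATT010821.2 had more FPKM than NONRATT003470.2 in 9 of 9 libraries, while NONRATT003466.2 exceeded NONRATT010821.2 in 5 of 9 and NONRATT003470.2 exceeded NONRATT007863.2 in 5 of 9. Of the 10 members with the highest mean FPKM, 9 were under 1000 bases.

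Long transcripts stood lower on the FPKM scale although their counts were high. NONRATT019720.2 (2530 bases) was at 229 FPKM on average (217 to 238 over the 9 libraries). NONRATT018825.2 (3949 bases) was at 79.9 FPKM on average (68.2 to 89.3 over the 9 libraries), and NONRATT001117.2 (5462 bases) at 63.1 FPKM on average (57.8 to 66.4 over the 9 libraries). NONRATT001117.2 was also the steadiest of the 100, with a coefficient of variation (CV) of 2.52% over the 9 libraries. Its lowest library had 3907 and its highest 4213 CPM.

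Among the 10 most abundant members, NONRATT000217.2 was the 1 that passed the test in any comparison, and the other 9 are given by their group means in CPM (SD, n = 3). NONRATT019720.2 was at 6795 ± 262 in Normal, 7165 ± 251 in Model and 6539 ± 155 in Treated, and NONRATT001117.2 at 4049.6 ± 50.7, 4004 ± 142 and 4124 ± 90.4. NONRATT018825.2 was at 3421 ± 277, 3993 ± 73.3 and 3752 ± 169, and NONRATT000814.2 at 3080.3 ± 215, 3298 ± 274 and 3825 ± 299. These 4 were all longer than 1000 bases and their group SD was small beside their level. The short NONRATT007863.2 was at 7712 ± 1029.6, 7517 ± 813 and 6332 ± 550.2, NONRATT010821.2 at 5592 ± 926, 4464 ± 1390.3 and 4160.2 ± 114, and NONRATT003470.2 at 3377 ± 167, 3418 ± 168 and 4228 ± 961. The widest group SDs belonged to NONRATT003466.2, at 16217 ± 5789, 20306 ± 6749 and 21113 ± 7011, and NONRATT031966.1, at 9352 ± 1618, 11533 ± 2116 and 15782 ± 5452.

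Most members varied little. The median CV over the 9 libraries was 9.23%, against 9.52% in the next 200 NONRATT rows by mean CPM. In 69 of the 100 the highest library was under 1.5 times the lowest, and in 91 it was under 2 times the lowest. The other 9 were 5 members that dropped out in 1 to 3 libraries, NONRATT003466.2, NONRATT031966.1, NONRATT034050.1 and NONRATT000217.2.

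Against Normal, 6 members were higher in the Treated group and none was lower at a Benjamini-Hochberg adjusted p below 0.05 (edgeR quasi-likelihood test over all 8653 lncRNAs that passed the filter). Of all these lncRNAs 0.185% were called, and 0.0809% were called higher, which is 7 lncRNAs with the 6 members among them. Of the next 200 NONRATT rows, 2 were called, both lower, and among the 17 other rows of the top 100 none was (DESeq2 called 3 and 0 there, and at an unadjusted p below 0.05 there were 32 and 3). Whether members were called more often than other rows was not tested. The 6 rose 1.51-fold to 1.69-fold. In bulk RNA more cells of a type and more RNA per cell cannot be told apart.

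NONRATT000217.2 (2609 bases, rank 5 by counts) was at 3955, 3751 and 4173 CPM in Normal 1 to 3, at 4350.3, 5384 and 5024 in Model 1 to 3 and at 6468, 6677 and 7531 in Treated 1 to 3. The 3 Treated libraries lay above all Model libraries, and these above all Normal libraries. Group means were 3959.7 ± 211 CPM in Normal, 4919.6 ± 525 CPM in Model and 6892 ± 563 CPM in Treated (SD, n = 3). Its rise from Normal to Treated was 1.69-fold (log2 fold change 0.76 ± 0.07, SE; edgeR adjusted p = 0.00263). The call held in each of the 20 alternative fits, with an edgeR adjusted p of at most 0.0301.

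NONRATT014858.2 (3196 bases, rank 12 by counts) was at 2326, 2116 and 2599.96 CPM in Normal 1 to 3, at 2836, 3093 and 2700.4 in Model 1 to 3 and at 3734, 4007 and 4077 in Treated 1 to 3. Here too the groups did not overlap and Model lay between the others. Group means were 2347 ± 243 CPM in Normal, 2877 ± 199 CPM in Model and 3939 ± 182 CPM in Treated (SD, n = 3). Its rise from Normal to Treated was 1.63-fold (log2 fold change 0.71 ± 0.07, SE; edgeR adjusted p = 0.00263). With Treated 2 and Treated 3 both left out the edgeR adjusted p was 0.0592, and it stayed below 0.05 in the other 19 alternatives.

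NONRATT020497.2 (2027 bases, rank 20 by counts) was at 1755, 1603 and 1837 CPM in Normal 1 to 3, at 2003, 2198 and 2068 in Model 1 to 3 and at 2557, 2631 and 2892 in Treated 1 to 3. Again each Treated library was above each Model library and each Model library above each Normal library. Group means were 1732 ± 119 CPM in Normal, 2089.7 ± 99.6 CPM in Model and 2693 ± 176 CPM in Treated (SD, n = 3). Its rise from Normal to Treated was 1.51-fold (log2 fold change 0.60 ± 0.07, SE; edgeR adjusted p = 0.00325). It missed the threshold with library sizes taken from the gene table (edgeR adjusted p = 0.0624) and without both Treated 2 and Treated 3 (edgeR adjusted p = 0.0798).

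NONRATT012436.2 (1270 bases, rank 52 by counts) was at 1167, 1109 and 1067 CPM in Normal 1 to 3, at 1259.8, 1398 and 1264 in Model 1 to 3 and at 1829.8, 1676 and 1718 in Treated 1 to 3. The same order without overlap was seen. Group means were 1114 ± 50.0 CPM in Normal, 1307 ± 78.5 CPM in Model and 1741 ± 79.6 CPM in Treated (SD, n = 3). Its rise from Normal to Treated was 1.52-fold (log2 fold change 0.60 ± 0.07, SE; edgeR adjusted p = 0.00468). It missed the threshold only when a fold above 1.2 was required (edgeR glmTreat, adjusted p = 0.0550), of the 20 alternatives run.

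NONRATT010790.2 (2471 bases, rank 65 by counts) was at 917, 1041 and 961 CPM in Normal 1 to 3, at 1005, 1124 and 1098 in Model 1 to 3 and at 1595, 1606 and 1734 in Treated 1 to 3. Model and Normal libraries overlapped, and every Treated library was above both. Group means were 973 ± 63.2 CPM in Normal, 1076 ± 62.4 CPM in Model and 1645 ± 77.3 CPM in Treated (SD, n = 3). Its rise from Normal to Treated was 1.64-fold (log2 fold change 0.72 ± 0.08, SE; edgeR adjusted p = 0.00263). Without both Treated 2 and Treated 3 the edgeR adjusted p was 0.0509.

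NONRATT010844.2 (3340 bases, rank 79 by counts) was at 906, 903 and 849.9 CPM in Normal 1 to 3, at 874, 1087 and 985 in Model 1 to 3 and at 1242, 1504 and 1514 in Treated 1 to 3. Model and Normal overlapped, and Treated lay above both. Group means were 886 ± 31.6 CPM in Normal, 982 ± 106 CPM in Model and 1420.1 ± 154 CPM in Treated (SD, n = 3). Its rise from Normal to Treated was 1.55-fold (log2 fold change 0.64 ± 0.09, SE; edgeR adjusted p = 0.0182). This call was the least firm of the 6 and was lost in 10 of the 20 alternatives. Leaving out 1 library at a time, the edgeR adjusted p was 0.0932 (Normal 1 left out), 0.0630 (Normal 2 left out), 0.116 (Normal 3 left out), 0.0737 (Model 3 left out), 0.128 (Treated 2 left out) and 0.121 (Treated 3 left out). With any of the other 3 libraries left out it stayed below 0.05, at 0.0188 (Model 1), 0.0227 (Model 2) and 0.0137 (Treated 1).

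The 6 shared one profile over the libraries. Pearson's r of log2(CPM + 1) between any 2 of them, over 9 libraries, was 0.910 to 0.990, and for each of them the 2 members most like it out of the other 99 were again among the 6. The closest pair was NONRATT000217.2 and NONRATT020497.2 (r = 0.990). These values rest on the group differences that the test had already selected and are given as a description.

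**Figure D1:**
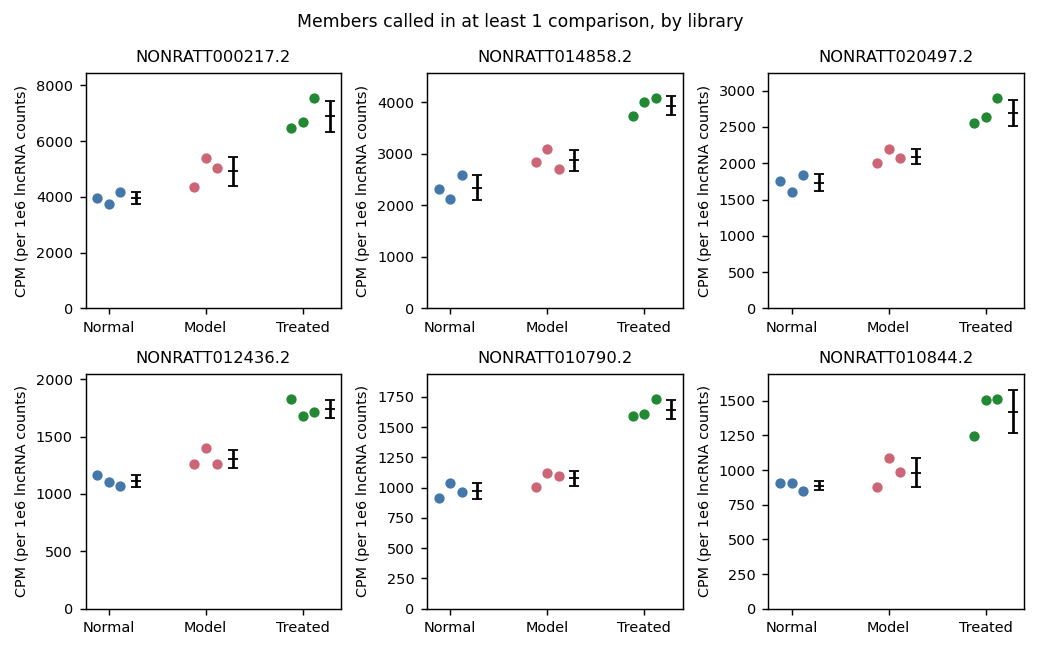
Each panel plots 1 of the 6 called members: points are the 3 libraries of a group, in counts per 1e6 lncRNA counts (CPM, linear axis from 0), and the bar beside them is the group mean with its SD. The Treated libraries lie above every Normal library in each panel, for NONRATT000217.2 at 6468, 6677 and 7531 against 3955, 3751 and 4173 CPM.

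Below these calls, NONRATT013721.2 (2037 bases) was the member with the smallest p among those lower in Treated. It was at 1769, 1928 and 1773 CPM in Normal 1 to 3, at 1778, 1676 and 1792 in Model 1 to 3 and at 1448, 1241 and 1198 in Treated 1 to 3. All Treated libraries were below all others, and the log2 fold change against Normal was -0.53 ± 0.10 (SE; edgeR adjusted p = 0.0930), which missed the threshold. NONRATT003473.2 (3290 bases), at 2060, 2032 and 2146 CPM in Normal 1 to 3, at 2122, 2181 and 2007 in Model 1 to 3 and at 2466, 2802 and 2709.7 in Treated 1 to 3, had a log2 fold change of 0.31 ± 0.06 against Normal (SE; edgeR adjusted p = 0.134). DESeq2 called both in this comparison, and 8 members in all, the 6 among them, where it called 0.393% of the lncRNAs. It gave no adjusted p to 1562 of the 8653 lncRNAs, 1 member among them, and these count as not called. NONRATT013721.2 and NONRATT003473.2 were chosen after their values were seen. An unadjusted edgeR p below 0.05 was reached by 13 higher and 10 lower members, where the whole table had 3.50% and 3.48%. Treated and Normal libraries did not overlap in 17 members that were higher and 10 that were lower, against 8.40% and 5.47% of all tested lncRNAs. In the next 200 NONRATT rows 26 were higher and 27 lower without overlap. The median log2 fold change of the 100 was -0.01, and 47 were above 0, against 49.5% of the table.

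Against Model, NONRATT010790.2 was the 1 member called in the Treated group (0.127% of all tested lncRNAs were called, 0.0347% as higher). Of the next 200 NONRATT rows edgeR called 2 and DESeq2 3, all lower, and of the 17 other rows of the top 100 neither called any. NONRATT010790.2 rose 1.49-fold (log2 fold change 0.57 ± 0.08, SE; edgeR adjusted p = 0.0140), from the Model level of 1076 ± 62.4 CPM (SD, n = 3). Leaving out 1 of 4 libraries lost this call: the edgeR adjusted p was 0.0527 without Model 2, 0.0697 without Model 3, 0.0618 without Treated 2 and 0.0763 without Treated 3. With any of the other 5 left out it stayed below 0.05, and it was lost in 9 of the 20 alternatives in all. The other 5 members that rose against Normal had log2 fold changes against Model of 0.45 ± 0.07 for NONRATT000217.2, 0.41 ± 0.07 for NONRATT014858.2, 0.33 ± 0.07 for NONRATT020497.2, 0.37 ± 0.07 for NONRATT012436.2 and 0.49 ± 0.09 for NONRATT010844.2 (SE), with edgeR adjusted p of 0.0705, 0.102, 0.224, 0.178 and 0.127. DESeq2 called all 6 of these higher in Treated and NONRATT013721.2 lower, 7 members in all, where it called 0.370% of the table. It gave no adjusted p to 723 of the 8653 lncRNAs, 1 member among them, and these count as not called.

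As a body the members leaned lower in Treated than in Model. The median log2 fold change was -0.09, against -0.01 over all tested lncRNAs, and 64 of 100 were below 0 and 36 above it, where 48.9% of the table were above. When library sizes came from gene counts, 56 of 100 were below 0 and the median was -0.03, against 0.05 over all tested lncRNAs. An unadjusted edgeR p below 0.05 was seen in 21 lower and 8 higher members, against 3.54% and 3.00% of the table. Treated libraries lay wholly below Model libraries in 23 members (5.47% of the table) and wholly above in 9 (6.95% of the table). The next 200 NONRATT rows leaned the same way, with a median of -0.07, 136 below 0 and 64 above it. Treated lay wholly below Model in 32 of these 200 and wholly above in 10. An unadjusted edgeR p below 0.05 was seen in 25 lower and 6 higher of them. The lean was thus not particular to the members. Of the 17 other rows of the top 100, 8 were below 0 and 9 above. The 3 comparisons share libraries by pairs, so their values are set side by side only.

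Between Model and Normal no member was called by edgeR (smallest adjusted p = 0.890) or by DESeq2, which gave 1 member no adjusted p. Of all tested lncRNAs edgeR called 0.0578% and DESeq2 0.139%. DESeq2 gave 2065 of the 8653 lncRNAs no adjusted p, and these count as not called in its percentage. An unadjusted edgeR p below 0.05 was found for 9 members, all higher in Model, against 2.02% of the lncRNAs. Of these 9, 4 were among the 6 that rose in Treated: NONRATT000217.2 with a log2 fold change of 0.31 ± 0.07, NONRATT014858.2 with 0.29 ± 0.07, NONRATT020497.2 with 0.27 ± 0.07 and NONRATT012436.2 with 0.23 ± 0.07 (SE), none past the adjusted threshold. NONRATT018825.2, of the 10 most abundant, was another, with 0.22 ± 0.06 (SE). Model libraries lay wholly above Normal in 17 members and wholly below in 1, where 5.79% and 4.22% of all tested lncRNAs did. The fitted change was above 0 in 80 of 100, against 50.8% of the table, with a median of 0.07 on the log2 scale. With library sizes taken from gene counts it was above 0 in 63 of 100. The members' median was then 0.03 and that of all tested lncRNAs -0.04, against 0.07 and 0.004 with lncRNA library sizes. The next 200 NONRATT rows also leaned higher in Model, with 127 above 0 and 73 below it. Model lay wholly above Normal in 23 of these 200 and wholly below in 4. An unadjusted edgeR p below 0.05 was found for 7 higher and 1 lower of them. Of the 17 other rows of the top 100, 6 were above 0 and 11 below.

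**Figure D2:**
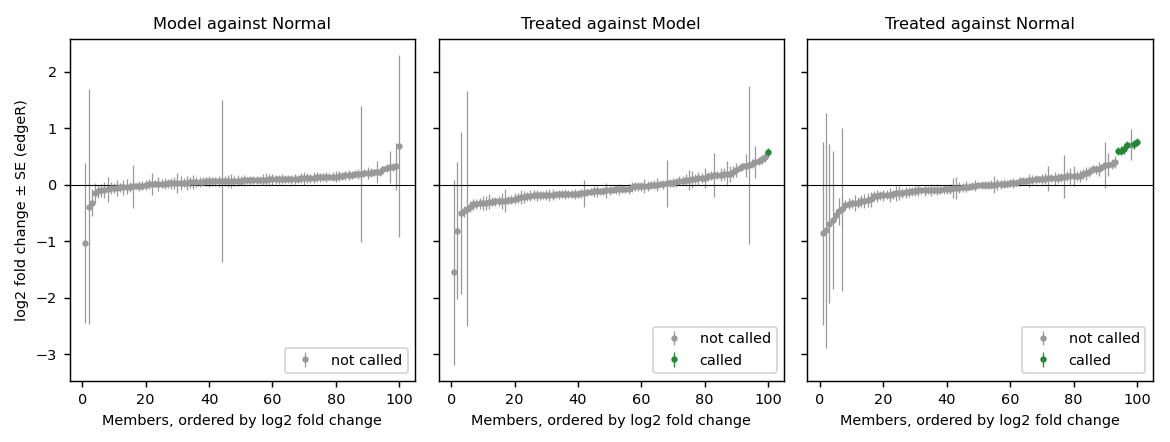
Each panel orders the 100 members by their edgeR log2 fold change in 1 comparison (y axis, with the SE as bars) and marks the called members in green. The 6 green points stand at the upper end of the Treated against Normal panel and 1 in the Treated against Model panel; the widest bars belong to members that dropped out in 1 to 3 libraries.

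The share of lncRNA counts held by all 100 members was 19.4% ± 0.522 in Normal, 20.7% ± 0.391 in Model and 21.0% ± 1.08 in Treated (SD, n = 3). In single libraries it was 20.01, 19.1 and 19.2% in Normal, 20.5, 21.1 and 20.4% in Model and 21.3, 19.8 and 21.9% in Treated. Every Model library was above every Normal library, and Treated 2 lay within the Normal range. The share includes NONRATT003466.2, with group means of 16217, 20306 and 21113 CPM in Normal, Model and Treated. It also includes NONRATT031966.1, at 9352, 11533 and 15782 CPM. The share without these members was not computed. A 2-sided exact permutation test over libraries gave p = 0.1 for Model against Normal, the smallest that 3 against 3 allows, and p = 0.6 for Treated against Model and 0.2 for Treated against Normal. Benjamini-Hochberg adjustment over the 3 comparisons gave 0.3, 0.6 and 0.3. At 3 against 3 this test cannot go below 0.05, so it says nothing on whether the share differed.

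In 5 members the level differed at least 4-fold between libraries, and the low libraries did not follow the groups. In the next 200 NONRATT rows by mean CPM this was seen in 16. NONRATT003469.2 (344 bases) was at 3465, 3327 and 3979 CPM in Normal 1 to 3, at 3509, 4003 and 3737 in Model 1 to 3 and at 3833, 4303 and 7.93 in Treated 1 to 3. It was thus near absent in Treated 3 alone, with 6 counts. NONRATT008643.2 (2243 bases) dropped in the same library: it was at 997, 1020.2 and 1154 CPM in Normal 1 to 3, at 1235, 1121 and 1253 in Model 1 to 3 and at 1063, 1029 and 7.93 in Treated 1 to 3. The value in Treated 3 is again 6 counts, while the other 8 libraries lay between 997 and 1253 CPM.

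NONRATT016535.2 (3069 bases) was at 2787, 2982 and 2712 CPM in Normal 1 to 3, at 0.892, 3369.6 and 3199 in Model 1 to 3 and at 2761, 8.44 and 2165 in Treated 1 to 3. Model 1 had 1 count and Treated 2 had 6, so the low libraries came from different groups. NONRATT006061.2 (427 bases) was at 2957, 2569 and 2354 CPM in Normal 1 to 3, at 6.25, 1906 and 1971 in Model 1 to 3 and at 2227, 1966 and 805 in Treated 1 to 3. It was low in Model 1, with 7 counts, and its next lowest value was in Treated 3. NONRATT018275.2 (4317 bases) was at 1996, 1992 and 68.7 CPM in Normal 1 to 3, at 1900.3, 2414 and 2284 in Model 1 to 3 and at 64.4, 90.1 and 2175 in Treated 1 to 3. Normal 3, Treated 1 and Treated 2 formed its low level and the other 6 libraries its high level.

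None of these 5 was called in any comparison by edgeR, where their log2 fold changes had SE from 1.21 to 2.09 and adjusted p from 0.923 upwards. A group mean of such a transcript describes how many of its 3 libraries were low, for example 777 ± 1211 CPM for NONRATT018275.2 in Treated (SD, n = 3).

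**Figure D3:**
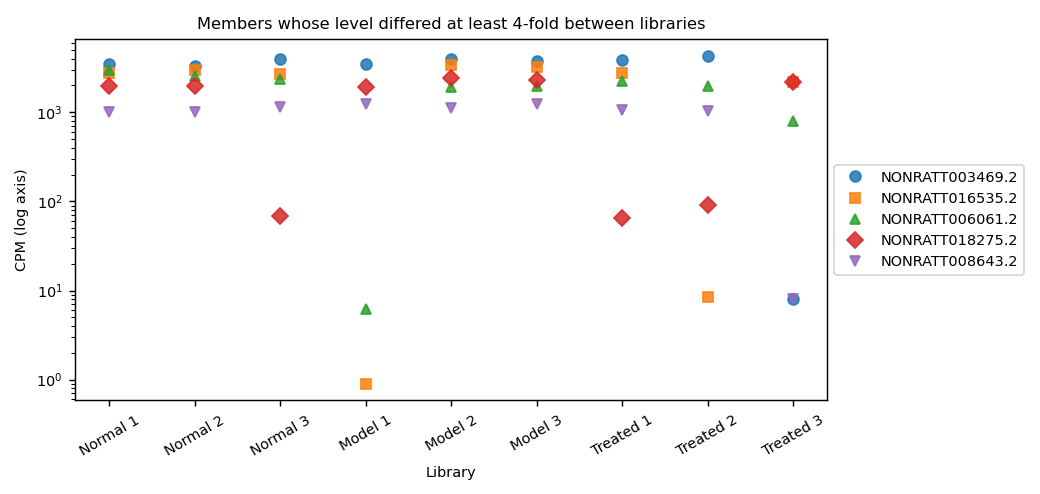
The 9 libraries are on the x axis and CPM on a logarithmic y axis, with 1 symbol shape for each of the 5 members that differed at least 4-fold. Single points fall to 0.892 CPM (NONRATT016535.2, Model 1) or 7.93 CPM (NONRATT003469.2 and NONRATT008643.2, Treated 3) while neighbouring libraries of the same group stay near or above 1000 CPM.

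The most abundant member, NONRATT003466.2, took 2 levels that also crossed the groups. It was at 22721, 11632 and 14297 CPM in Normal 1 to 3, at 22857, 25408 and 12654 in Model 1 to 3 and at 25377, 13021 and 24940.4 in Treated 1 to 3. Normal 2, Normal 3, Model 3 and Treated 2 were at 11632 to 14297 CPM and the other 5 libraries at 22721 to 25408 CPM. After these values were seen, the lncRNA rows that reached at least 25% of the lost level in each low library were ranked by their lowest value there over their highest value in the other libraries. The Ensembl transcript ENSRNOT00000092869 (709 bases) came first. It was at 8605, 24958 and 22978 CPM in Normal 1 to 3, at 8637, 8891 and 24498 in Model 1 to 3 and at 9612, 24931 and 12345 in Treated 1 to 3. Its high libraries were exactly the low libraries of NONRATT003466.2.

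The sum of both transcripts was steadier than either. It ran from 31326 to 37952 CPM with a CV of 7.16%, while NONRATT003466.2 alone had a CV of 31.8% and ENSRNOT00000092869 of 48.6%. NONRATT003466.2 made up 66.9% to 74.1% of the sum in its 5 high libraries and 31.8% to 38.4% in its 4 low libraries. Since the second row was chosen for this contrast, the values are a description, and whether the 2 entries overlap in the genome was not tested.

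**Figure D4:**
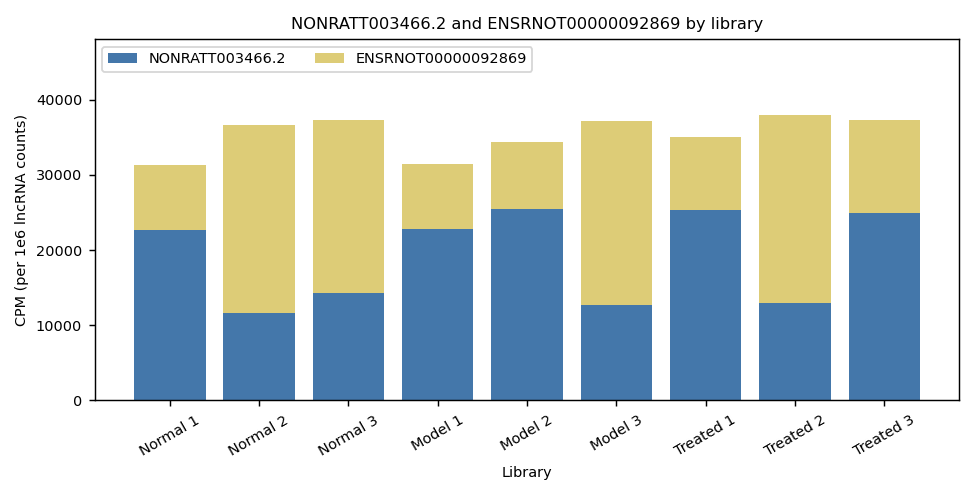
Bars give, for each of the 9 libraries, the CPM of NONRATT003466.2 (blue) with that of ENSRNOT00000092869 (yellow) stacked on it, on a linear axis from 0. The blue part is short in Normal 2, Normal 3, Model 3 and Treated 2, and the full bars span 31326 to 37952 CPM.

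The same ranking was made for the 5 members that dropped out. Where NONRATT006061.2 was low, in Model 1, the assembled transcript MSTRG.9882.31 (800 bases) was at 2961 CPM, against 106 to 231 CPM in the other 8 libraries. Its gain was 134% of the loss, and the sum of both had a CV of 28.4%. For NONRATT003469.2 and NONRATT008643.2 the row found was NONRATT021144.2 (1686 bases), with 1542 counts (2039 CPM) in Treated 3 and 6 or 7 counts in each other library. This same gain was set against each loss in turn. It was 53.9% of the loss of NONRATT003469.2 and 188% of that of NONRATT008643.2, and the sums had a CV of 18.2% and 26.6%. For NONRATT016535.2 the Ensembl transcript ENSRNOT00000088597 was at 6379.8 and 6906 CPM in the 2 low libraries and at 4048 to 5851 CPM in the others. The sum of NONRATT016535.2 and that transcript had a CV of 10.3%. For NONRATT018275.2 the row that ranked first, NONRATT009775.2, gained 15.3% of the loss, and the sum had a CV of 36.1%. Each of these rows was chosen for being high where the member was low. A gain was therefore built in, and the values are a description.

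Among the other 93 members, left after these 5, NONRATT003466.2 and NONRATT031966.1 were set aside for their spread, much of the difference between libraries of the same group lay on 1 axis. No threshold was set for leaving out the last 2. NONRATT034050.1, with a CV of 31.0% against 31.8% for NONRATT003466.2, was kept and had a loading of -0.18. After each member's group mean was subtracted from log2(CPM + 1), the first principal component held 50.5% of the variance. Its scores were 0.05, -1.03 and 0.98 in Normal, -1.16, 1.27 and -0.11 in Model and -0.44, -0.09 and 0.53 in Treated. NONRATT029255.2 (3210 bases), the member with the highest loading, was at 2013, 1706 and 2437 CPM in Normal 1 to 3, at 1348, 2679 and 1807 in Model 1 to 3 and at 2198, 2154 and 2481 in Treated 1 to 3. It was high in Normal 3 and Model 2 and low in Normal 2 and Model 1. NONRATT010821.2, with the lowest loading, went the other way, at 5927, 6303 and 4546 CPM in Normal 1 to 3, at 6059, 3506 and 3827 in Model 1 to 3 and at 4258, 4188 and 4035 in Treated 1 to 3. Of the 11 members under 1000 bases used here 7 had a negative loading, and among all 93 there were 43 negative and 50 positive loadings.

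The lncRNA counts as a share of the fragments behind the deposited FPKM ran beside this axis. That share was 8.39%, 8.66% and 8.82% in Normal 2, Normal 1 and Normal 3, in the order of their scores. It was 8.30%, 8.50% and 8.84% in Treated 1, Treated 2 and Treated 3, again in order. In Model it was 8.11% in Model 1, 8.02% in Model 3 and 8.70% in Model 2, where the lower 2 are not in order. Its part in the component was not tested. With that share as a covariate, a fit added after the data were seen, all 6 calls against Normal remained among 11 members called. The share of all tested lncRNAs called in that fit is not given here, so the 11 cannot be set against it.

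**Figure D5:**
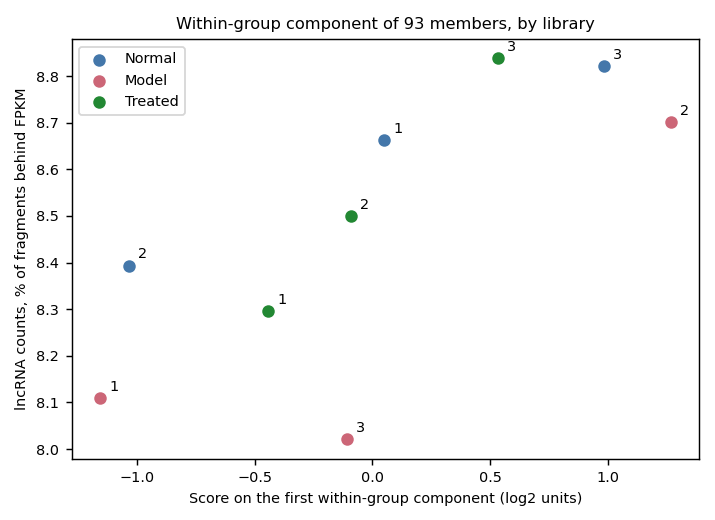
Each point is 1 library, numbered by replicate and coloured by group, with its score on the first within-group component of the 93 members (x axis, log2 units) and its lncRNA counts as a percentage of the fragments behind FPKM (y axis, not starting at 0). Model 2, at a score of 1.27, and Model 1, at -1.16, are the ends of the axis and have 8.70% and 8.11%.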

How the data were processed

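Cultured rat renal artery endothelial cells were measured by total RNA sequencing in 9 libraries. The authors deposited whole-number read counts per lncRNA transcript and per gene, and FPKM values of the same features, per the file headers. Per the submitters' processing notes, CASAVA 1.8 and the build mRatBN7.2 were used. How reads were aligned and counted, whether by strand and on which annotation, is not given in the sources used here. Entries that overlap or lie antisense to others are therefore uncertain. The FPKM values that the authors deposited gave transcript lengths: with 1 fragment total per library, between 1.04 and 1.05 times that library's gene total, count divided by FPKM gave lengths within 0.05 bases of a whole number for 100% of the 300 highest-count rows.

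Levels, and the counts of rows without overlap between groups, are per 1e6 lncRNA counts without TMM factors. The edgeR fold changes use these factors and so can differ from ratios of the group means. They were 0.992, 0.975 and 1.004 in Normal 1 to 3 and 0.997, 1.035 and 1.032 in Treated 1 to 3. The whole lncRNA table was tested with edgeR 4.0.16 in R 4.3.3 (filterByExpr with a minimum count of 10, TMM factors of 0.963 to 1.04, robust quasi-likelihood fit of all 9 libraries with group as the term), with adjustment over all 8653 tested lncRNAs. The SE is the log2 fold change divided by the square root of F. Alternatives were DESeq2 1.42.0, other scalings and filters, a replicate block, a fit on 2 groups, a required fold, other member rules and leaving out libraries. Named were the 10 most abundant members, those called, the 5 with the largest spread within a group, the ranks around the limit and number neighbours. Members and lists were chosen with earlier results of these data known. None of the 100 members was matched to the RefSeq tables, so positions and sequences are not used here.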

Additional observations from a re-analysis of the deposited data

How the results depend on the processing

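No alternative run called a member between Model and Normal. Between Treated and Model the 1 call became 7 with DESeq2, 2 in a fit on these 2 groups and 2 when the 100 rows were chosen by mean FPKM (2 higher in the former, 2 lower and none higher in the latter). It became 0 with no count filter, without robust settings, with a fold above 1.2 required, with the replicate block and without both Treated 2 and Treated 3 (added after seeing the data), and it was 0 to 2 with single libraries left out. Between Treated and Normal the 6 calls became 11, 8 higher and 3 lower, with the lncRNA share of fragments as a covariate (added after seeing the data) and 2 without both Treated 2 and Treated 3, where the lone Treated library is assumed to vary like the other groups. The 3 lower members in the fit with this covariate, named after their values were seen, were NONRATT000993.2, NONRATT007863.2 and NONRATT013721.2. For that fit the share of all tested lncRNAs called is not given here. With library sizes from gene counts 4 were called higher and NONRATT013721.2 lower, and of the 100 rows chosen by FPKM 4 were called higher and 2 lower. The 6 calls were 5 to 7 with single libraries left out, and the replicate block left 6. No pairing by replicate number was seen in the deviations of libraries from their group means. Those of same-numbered libraries correlated at -0.0822 to 0.0142 over all tested lncRNAs, and 0 of 9 libraries correlated best with one of their own number. With 3 libraries per group, a weak pairing could be missed by this measure. The members' mean share of lncRNA counts, 20.4%, was 16.8% when chosen by FPKM and 20.2% to 20.5% with single libraries left out. No called fold change reversed its sign. The 5 values under 10 counts all belonged to members that dropped out, and what part depth had in the results was not tested.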

Other observations

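Members whose catalogue numbers differ by 1 formed 3 pairs. NONRATT003469.2 and NONRATT003470.2, of 344 and 354 bases, were at 3327 to 4303 and 3195 to 3843 CPM in 8 libraries, and in Treated 3 the first fell out while the second stood at 5322 CPM, its highest value. NONRATT003466.2 and NONRATT003467.2 did not share their levels: the second stayed at 1144 to 1352 CPM while the first changed 2.18-fold. NONRATT020678.2 and NONRATT020679.2 were steady, at 1157 to 1368 and 1339 to 1593 CPM. Whether neighbouring numbers lie next to each other in the genome was not tested.

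NONRATT031966.1, the second member by counts, was at 11099, 9052 and 7906 CPM in Normal 1 to 3, at 12134, 9182 and 13284 in Model 1 to 3 and at 13311, 12003 and 22031 in Treated 1 to 3. Treated 3 stood above all others, and its log2 fold change between Treated and Normal was 0.71 ± 0.28 (SE; edgeR adjusted p = 0.689). No row of the gene table had counts within 2% of those of any member in all 9 libraries.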
